A study of Mus musculus with 2 samples.

Results

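Small nucleolar RNA host genes were examined at 8 loci, Snhg1, Snhg3, Snhg4, Snhg5, Snhg6, Snhg8, Snhg12 and Gas5, chosen by name. Of the 8, 7 were found by symbol among the 55450 genes of GENCODE vM21 (GRCm38), and Snhg4 was placed by its RefSeq record and is described apart. A peak was linked to a gene when its midpoint lay from 1000 bp before to 500 bp after any of the gene's transcription start sites (a promoter peak), in the gene body, or within 20 kb of the gene. By this rule 12 of the 28718 peaks of the GFP antibody and 7 of the 28167 peaks of the SRCAP antibody were linked to the 7 genes.

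SRCAP is the ATPase of a remodelling complex that exchanges H2A for the variant H2A.Z in nucleosomes, and the series asked where it sits on chromatin. Both libraries were CUT&RUN, in which a nuclease tethered by an antibody releases the DNA around the bound protein, from 100000 SYAT cells after 5 minutes in 0.1% formaldehyde. SYAT is a single mouse embryonic stem cell line derived from CGR8, in which both Srcap alleles carry YPet and an auxin-inducible degron at the 3′ end and the cells also express OsTir1, the receptor through which auxin triggers degradation. One library used an antibody against GFP (Abcam ab290), which binds the YPet tag, and the other an antibody against SRCAP itself (Kerafast ESL-103). Per the paper, its cells were routinely grown in serum and LIF with further inhibitors, and the medium was changed to serum and LIF before experiments. Cells of this line were kept with auxinole, an inhibitor of OsTir1, as the control condition, and were given auxin (IAA) to degrade SRCAP. The labels do not say which of these each library received, while the paper describes its CUT&RUN map as one of control SYAT cells. There was 1 library per antibody, so no difference below has a replicate check and no significance test was made. Intervals are 95% Wilson intervals and cover counting error only, and genes and peaks are not independent replicates.

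Many small nucleolar RNAs (snoRNAs), though not all, guide the modification of ribosomal RNA, guides of the box C/D kind directing methylation and those of the box H/ACA kind pseudouridylation. In mammals most snoRNAs are cut from the introns of a longer host transcript, so such a snoRNA is made only where its host is transcribed. The spliced exons of the noncoding hosts studied here are mostly unstable, and many of these transcripts, Gas5 being the classic case, begin with a C followed by a pyrimidine run, the 5′ terminal oligopyrimidine (TOP) start shared with ribosomal protein genes. Gas5 (growth arrest specific 5) held 9 distinct annotated snoRNAs, Snhg1 held 8, Snhg12 held 4, Snhg3 and Snhg5 held 2 each, and Snhg6 and Snhg8 held 1 each. The Gas5 count includes Mir5117, a record with a microRNA name that was counted by its annotated type.

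The promoter sequences are shown because the loci differ both in which antibody had a peak there and in the elements around the start site. Each is the RefSeq window on GRCm38 from 250 bases before to 50 after the start, 5′ to 3′ on the gene's strand. Snhg1 is cut to chr19:8723370-8723536 (+), since its upstream part belongs to the transcribed leader of the neighbouring Slc3a2. Gas5 is the window of its downstream start, chr1:161034916-161035215 (+), and the window of Snhg12 is chr4:132308428-132308727 (+), and both of these windows hold the whole of the gene's promoter peak. Snhg8 is chr3:123508287-123508586 (-), Snhg3 is chr4:132353637-132353936 (-) and Snhg5 is chr9:88522848-88523147 (-), and none of these 3 windows is touched by a peak. The last line is the SRCAP antibody peak upstream of Snhg8, chr3:123509049-123509240, written on the strand of the gene. Capitals mark a C-started pyrimidine run of 5 or more letters within 5 bases of the start site, and matches on either strand to the letters searched, which are listed after the sequences.
Snhg1: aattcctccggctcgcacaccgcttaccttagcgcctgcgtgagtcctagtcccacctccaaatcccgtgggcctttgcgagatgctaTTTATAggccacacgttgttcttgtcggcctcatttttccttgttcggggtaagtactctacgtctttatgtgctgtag
Gas5: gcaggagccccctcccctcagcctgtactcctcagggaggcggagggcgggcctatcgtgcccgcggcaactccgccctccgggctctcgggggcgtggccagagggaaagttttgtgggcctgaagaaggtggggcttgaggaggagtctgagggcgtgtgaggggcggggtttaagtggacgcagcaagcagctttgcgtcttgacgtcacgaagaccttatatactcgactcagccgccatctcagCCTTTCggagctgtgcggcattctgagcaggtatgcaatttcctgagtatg
Snhg12: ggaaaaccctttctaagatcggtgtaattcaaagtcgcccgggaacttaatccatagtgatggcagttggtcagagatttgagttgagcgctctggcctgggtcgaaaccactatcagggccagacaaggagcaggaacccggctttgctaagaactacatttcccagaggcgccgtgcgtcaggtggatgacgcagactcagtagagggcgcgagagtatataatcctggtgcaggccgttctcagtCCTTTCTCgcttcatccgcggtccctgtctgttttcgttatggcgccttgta
Snhg8: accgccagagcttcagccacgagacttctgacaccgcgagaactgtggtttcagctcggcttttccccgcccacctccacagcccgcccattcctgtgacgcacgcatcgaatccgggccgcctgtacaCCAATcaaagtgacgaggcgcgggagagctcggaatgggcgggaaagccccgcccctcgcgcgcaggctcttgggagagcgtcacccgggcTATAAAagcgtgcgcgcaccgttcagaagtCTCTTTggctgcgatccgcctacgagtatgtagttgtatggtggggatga
Snhg3: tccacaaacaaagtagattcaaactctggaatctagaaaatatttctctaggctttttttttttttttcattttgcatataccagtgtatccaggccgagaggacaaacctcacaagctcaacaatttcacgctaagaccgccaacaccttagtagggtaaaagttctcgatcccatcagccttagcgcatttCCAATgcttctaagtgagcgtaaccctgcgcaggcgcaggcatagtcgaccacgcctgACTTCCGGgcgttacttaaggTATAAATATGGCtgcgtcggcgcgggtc
Snhg5: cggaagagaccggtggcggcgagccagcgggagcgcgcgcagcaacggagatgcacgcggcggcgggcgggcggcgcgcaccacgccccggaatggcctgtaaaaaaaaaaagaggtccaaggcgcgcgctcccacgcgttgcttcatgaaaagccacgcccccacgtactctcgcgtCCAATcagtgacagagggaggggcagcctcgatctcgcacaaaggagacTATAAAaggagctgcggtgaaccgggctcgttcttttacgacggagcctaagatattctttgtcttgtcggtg
Snhg8 peak: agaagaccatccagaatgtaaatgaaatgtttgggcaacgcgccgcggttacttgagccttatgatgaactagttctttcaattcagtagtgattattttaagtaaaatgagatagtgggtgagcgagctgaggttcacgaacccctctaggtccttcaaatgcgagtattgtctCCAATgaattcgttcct

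The letters searched on both strands were CCAAT (bound by NF-Y), TATAAA (the TATA box), CACGTG (E-box), CCGGAAGT (ETS factors), GCCATNTT (YY1), GCATGCGC (NRF1) and ACTACAATT (ZNF143). RefSeq windows were at hand for 6 of the 8 genes, the missing ones being Snhg6 and Snhg4. TATAAA was in the windows of 4 of the 6 genes, against 13.6% of the 32841 promoter windows of the same table. In Snhg8 it began 30 bases before the start, in Snhg5 it began 23 bases before, and in Snhg1 it lay on the opposite strand, beginning 29 bases before. Only 2.27% of all windows held TATAAA with its first base 35 to 20 bases before the start, a zone chosen after these 3 positions had been seen. The match in Snhg3 differed from these 3 in lying 22 bases after the start. The 2 windows with a whole peak inside them, Gas5 and Snhg12, had no exact TATAAA. Both printed sequences do hold the near variant tatata shortly before their marked pyrimidine run, and such variants were not searched. Snhg1, the gene with a promoter peak in both lists, held a match in its window, so TATAAA in the window did not separate genes with and without a promoter peak. That match lay outside both Snhg1 peaks, just past the end of the SRCAP antibody peak at 8723456. The GFP antibody peak ended at 8723360, before the printed Snhg1 sequence begins.

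The letters CCAAT were found in 3 of the 6 genes, beginning 121 bases before the start in Snhg8, 72 bases before in Snhg5 and 57 bases before in Snhg3, and 37.4% of all windows held it. None of these 3 windows was touched by a peak, although the SRCAP antibody peak upstream of Snhg8 itself carried 1 CCAAT. Snhg3 alone matched the ETS and YY1 letters, both on the opposite strand and both after the start, against 3.89% and 6.05% of all windows, and its YY1 match shared 2 letters with its TATAAA. None of the 6 genes with a window held the E-box, NRF1 or ZNF143 letters, which were in 7.15%, 2.71% and 0.393% of all windows.

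A pyrimidine run of the TOP kind was in 4 of the 6 genes, against 18.3% of all windows. The run had 8 letters in Snhg12, 6 in Gas5, 6 in Snhg8 and 5 in Snhg3, where it lay inside the ETS match, while Snhg1 had 4 letters and Snhg5 had 3. All 6 genes had a window above the upper quartile of all promoters for the ratio of observed to expected CpG, which was 0.75. The ratio was 1.26 in Snhg5, a value at the 99.9 percentile of all windows, 1.07 in Snhg1, 1.04 in Snhg8, 1.02 in Snhg3, 0.904 at the upstream start of Gas5 and 0.859 in Snhg12. The downstream start of Gas5, whose window holds the peak, was lower at 0.672. GC content ran from 46.0% in Snhg3 to 73.7% at the upstream start of Gas5, the median of all promoters being 52.7%. Snhg5 and Snhg3, the genes with no promoter peak in either list, thus had CpG ratios within the range of the others or above it.

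**Figure D1:**
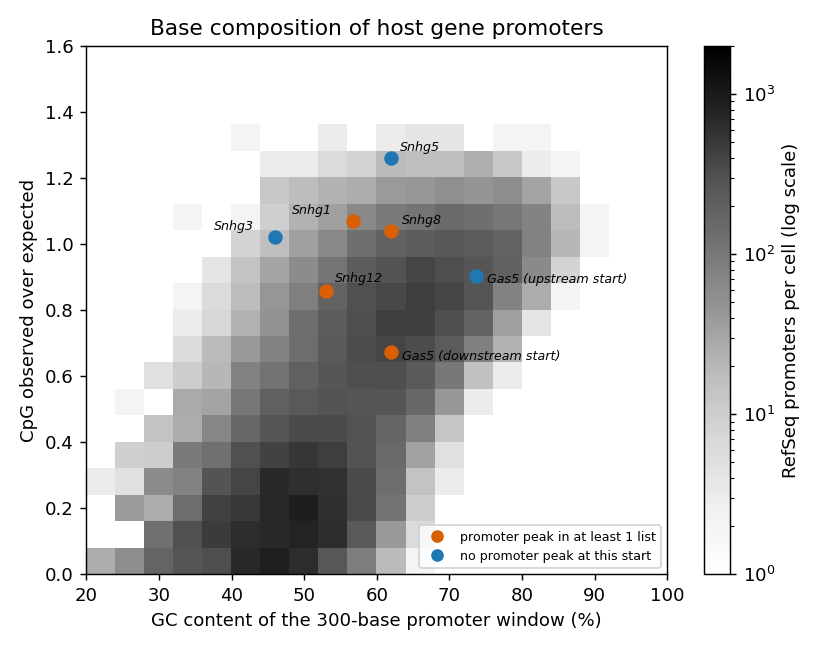
GC content (x axis, percent) and CpG observed over expected (y axis) of the 300-base promoter windows of 6 host genes, over the number of RefSeq promoters in each cell of the grid (grey, log scale). Orange points are genes with a promoter peak in at least 1 list. For Gas5 only the downstream start, whose window holds the peak, is orange. Its upstream start is blue because its window does not hold the peak, although the peak's midpoint lies within 500 bp after that start. Snhg8 is orange by the promoter rule, but no peak touches its 300-base window. The blue points Snhg5, at 1.26, and Snhg3, at 1.02, lie above and within the range of the orange ones on the y axis.

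The GFP antibody had a promoter peak at 3 of the 7 genes, Snhg1, Snhg6 and Snhg12 (42.9%, 95% interval 15.8 to 75.0), where 17.1% of all genes and 11.5% of the 10155 long noncoding RNA genes had one. For the SRCAP antibody the number was also 3 of 7, but the genes were Snhg1, Snhg8 and Gas5, against 17.4% of all genes and 11.4% of long noncoding RNA genes. Snhg1 was the 1 gene with a promoter peak in both lists (14.3%, 2.57 to 51.3), against 12.9% of all genes and 8.08% of long noncoding RNA genes. Snhg3 and Snhg5 had a promoter peak in neither. Counted over any linked peak, 6 of the 7 genes had one by the GFP antibody and 5 of 7 by the SRCAP antibody, where 50.6% and 51.0% of all genes did. The intervals of these shares, 48.7% to 97.4% and 35.9% to 91.8%, hold the values of all genes as well as those of the other snoRNA host genes, 85.4% and 82.8%.

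**Figure D2:**
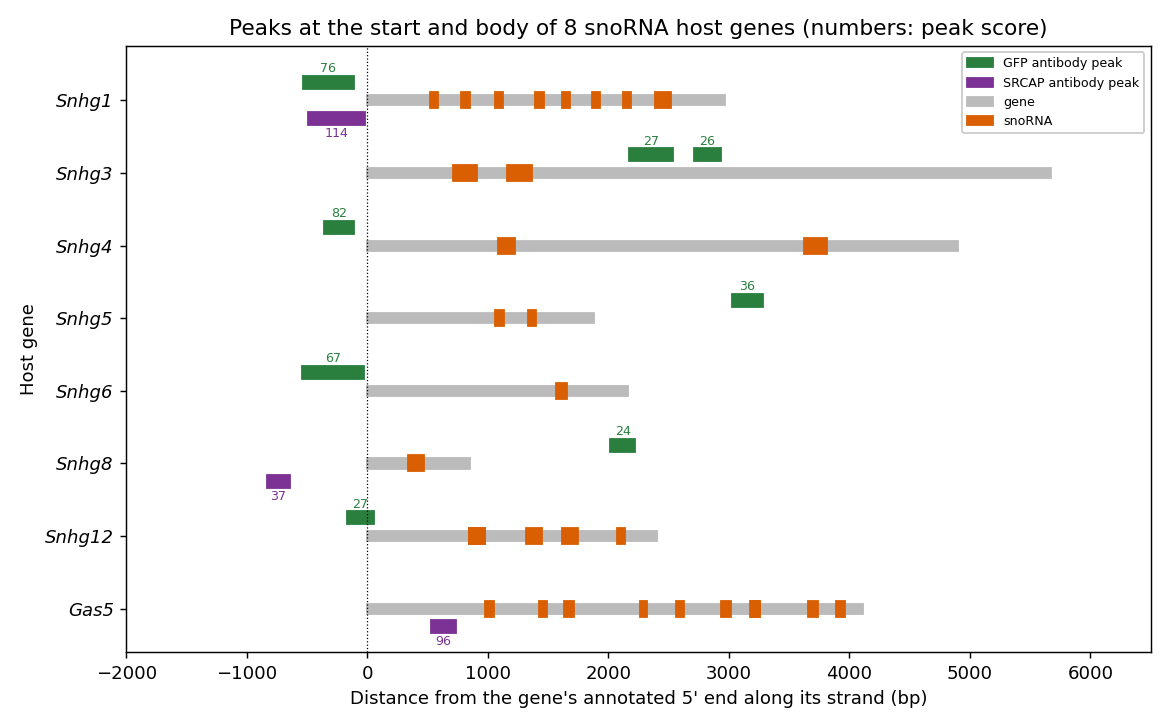
Peaks of the GFP antibody (green, above) and the SRCAP antibody (purple, below) around the annotated 5′ end of each host gene, with the gene in grey, its snoRNAs in orange and the authors' peak score printed at each peak (x axis: distance along the gene's strand in bp). Only Snhg1 has peaks of both colours at its start, and no peak of either colour lies over a snoRNA.

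Snhg1, whose introns carry box C/D snoRNAs, lies at chr19:8723475-8726443 (+) and has 17 annotated start sites. Its 5′ end is 106 bp from the start of Slc3a2, the heavy chain of an amino acid transporter, on the opposite strand. The GFP antibody peak covered chr19:8722942-8723360 with a score of 76, at the 78.4 percentile of its list, and the SRCAP antibody peak covered chr19:8722985-8723456 with a score of 114, at the 90.0 percentile. They overlapped by 376 bp, and their midpoints lay 324 and 255 bp before the 5′ end of Snhg1. Both midpoints fell inside Slc3a2 and in its promoter window as well, so the peaks cannot be assigned to one gene of the pair, and they were also in the window of Gm25855, the first snoRNA of Snhg1. Among genes with a promoter peak Snhg1 ranked by score 2964 of 9508 for the GFP antibody, and 1568 of 9662 for the SRCAP antibody, above the median gene, which scored 56 and 59. The SRCAP antibody had 2 more linked peaks there, with a score of 38 inside Slc3a2, 6915 bp before the 5′ end of Snhg1, and of 40 at the promoter of Stx5a, a Golgi syntaxin. The GFP antibody had no peak at either place.

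Snhg6 and Snhg12 had a promoter peak of the GFP antibody alone. Snhg6, at chr1:9941959-9944118 (-), is the host of Snord87, and its peak at chr1:9944145-9944660 had a score of 67, at the 71.7 percentile, with its midpoint 284 bp before the 5′ end. The midpoint lay in no other gene's promoter window, and the nearest peak of the SRCAP antibody was 35399 bp away. Snhg6 was thus the one promoter peak of the GFP antibody among the 7 genes that was above its list's median score of 47 and had no counterpart nearby.

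Snhg12, at chr4:132308623-132311024 (+), hosts Snora16a, Snora44, Snora61 and Snord99 and has 8 start sites. Its promoter peak, chr4:132308454-132308678, was centred 57 bp before the 5′ end, the smallest such distance to a 5′ end among the promoter peaks of the 7 genes, yet its score of 27 was at the 14.2 percentile of the list. By that score Snhg12 ranked 8611 of the 9508 genes with a promoter peak of the GFP antibody. The peak also fell in the window of Snora16a, and the nearest peak of the SRCAP antibody was 12004 bp from it. Snhg12 also had the most linked peaks, 6 by the GFP antibody and 2 by the SRCAP antibody, and the others all lay outside the gene. A GFP antibody peak with a score of 45 and a SRCAP antibody peak with a score of 53 overlapped by 219 bp, 12597 and 12432 bp before the 5′ end. Single GFP antibody peaks scored 30 at the promoter of the small GTPase gene Rab42 and 39 inside Trnau1ap, which encodes a protein associated with the selenocysteine tRNA.

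Within each list the largest scores near Snhg12 were at the promoter of Trnau1ap. There 2 GFP antibody peaks with scores of 46 and 73 overlapped 1 SRCAP antibody peak of 877 bp with a score of 66. These 3 peaks lay within 20 kb of both Snhg12 and Snhg3 and so were linked to both genes, and each was counted once in the totals. Neither host gene's promoter held them.

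Snhg8 and Gas5 had a promoter peak of the SRCAP antibody alone. Gas5, at chr1:161034422-161038539 (+), has 20 annotated start sites, and its 5′ end is 138 bp from the start of Zbtb37, a zinc finger gene on the opposite strand. The SRCAP antibody peak, chr1:161034949-161035158, had a score of 96, at the 84.5 percentile, and ranked Gas5 2308 of the 9662 genes with such a peak. Its midpoint was 631 bp inside the gene counted from the 5′ end, but 14 bp before the nearest annotated start site. That start site lies inside the peak and is not the RefSeq start of the window printed above, which lies past the end of the peak. The midpoint was also in the promoter windows of Zbtb37 and of the first annotated snoRNAs of Gas5, Gm26224 and Gm22489. The nearest GFP antibody peak, with a score of 137, was 35274 bp away.

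Snhg8, the host of Snora24 at chr3:123507552-123508404 (-), had a SRCAP antibody peak of 192 bp with a score of 37, at the 36.6 percentile. Its midpoint was 740 bp before the nearest start site, the farthest upstream of the promoter peaks of the 7 genes, and the peak had 42.2% GC. Beyond the 3′ end of Snhg8 the GFP antibody had a peak with a score of 24 inside Prss12, 2047 bp after the nearest start site of Snhg8. These 2 peaks were 2662 bp apart, so Snhg8 had a peak of each antibody nearby but none at the same place.

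Snhg3 and Snhg5 had no promoter peak in either list. Snhg3, at chr4:132348014-132353686 (-), hosts the box H/ACA snoRNAs Snora73a and Snora73b and overlaps Rcc1, the nucleotide exchange factor of Ran, on the same strand. In its body the GFP antibody had 2 peaks, chr4:132350750-132350975 with a score of 26 and chr4:132351151-132351517 with a score of 27, at the 12.8 and 14.2 percentiles. They lay 2071 and 1599 bp after the nearest start site of Snhg3, and both were in the promoter window of the noncoding gene Gm17300 and the second also in that of Rcc1. No SRCAP antibody peak lay closer to a start site of Snhg3 than 23.4 kb, at Trnau1ap. Snhg5, at chr9:88521050-88522929 (-), hosts Snord50a and Snord50b, and it had a single linked peak, of the GFP antibody, with a score of 36, beyond its 3′ end and 2093 bp after the nearest start site. The nearest SRCAP antibody peak was 25.2 kb from a start site of Snhg5, and the gene had the highest CpG ratio of the windows measured.

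**Figure D3:**
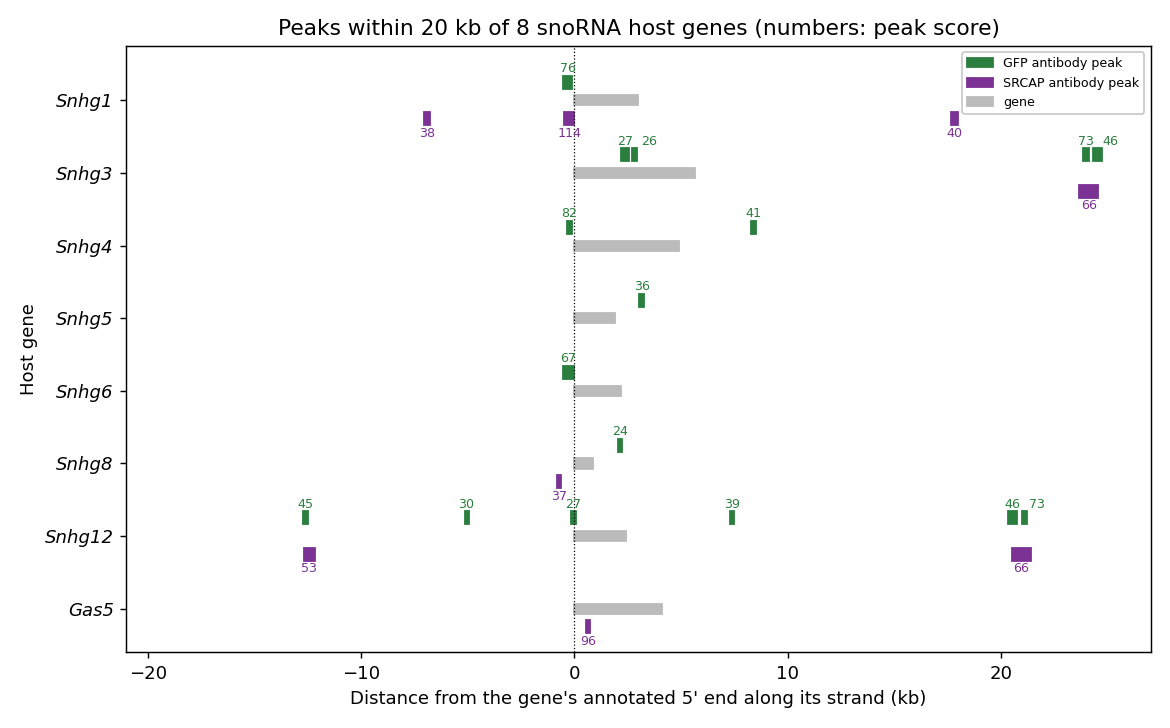
All linked peaks of the 8 host genes (x axis: distance from the annotated 5′ end along the gene's strand in kb; green, GFP antibody; purple, SRCAP antibody; grey, gene; printed numbers are peak scores). The peaks with scores of 73, 46 and 66 at the right of Snhg3 and of Snhg12 are the same 3 peaks, and the places with overlapping peaks of both colours are the start of Snhg1, that promoter and a place 12 kb before Snhg12.

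Snhg4, the host of the box H/ACA snoRNA Snora74a, was placed by its RefSeq record at 35553410 to 35558316 on the plus strand of chromosome 18. The GFP antibody had a promoter peak there, from 35553050 to 35553300, with a score of 82, at the 80.7 percentile, and its midpoint was 235 bp before the 5′ end. That score was above the scores of all 3 promoter peaks of the GFP antibody at the other 7 genes. The midpoint also lay in the promoter windows of the noncoding genes AC121821.1 and Gm28285. A second GFP antibody peak with a score of 41 was at the promoter of Matr3, which encodes a nuclear matrix protein. The SRCAP antibody had no linked peak, the nearest being 20.2 kb from the start. With Snhg4 counted, the promoter peaks reached 4 of 8 genes in the GFP list, 3 of 8 in the SRCAP list and 1 in both.

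Scores of the 12 linked GFP antibody peaks ran from 24 to 76 with a median of 37.5, and 3 of them reached the list's median of 47. Those of the 7 linked SRCAP antibody peaks ran from 37 to 114 with a median of 53, and 4 reached that list's median, also 47. The linked peaks were 185 to 516 bp and 192 to 877 bp wide, and the list medians were 301 and 258 bp. Of the 12 GFP antibody peaks 3 were at a promoter of a host gene, 5 at the promoter of another gene only and 4 at no promoter, and of the 7 SRCAP antibody peaks the numbers were 3, 2 and 2. At least 1 bp was shared with a peak of the other list by 4 of the 12 (33.3%, 13.8 to 60.9) and by 3 of the 7 (42.9%, 15.8 to 75.0), while 56.2% and 57.7% of all peaks were shared. The intervals hold the values of all peaks, and the lower share at the host genes could not be distinguished from them at this number of peaks.

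**Figure D4:**
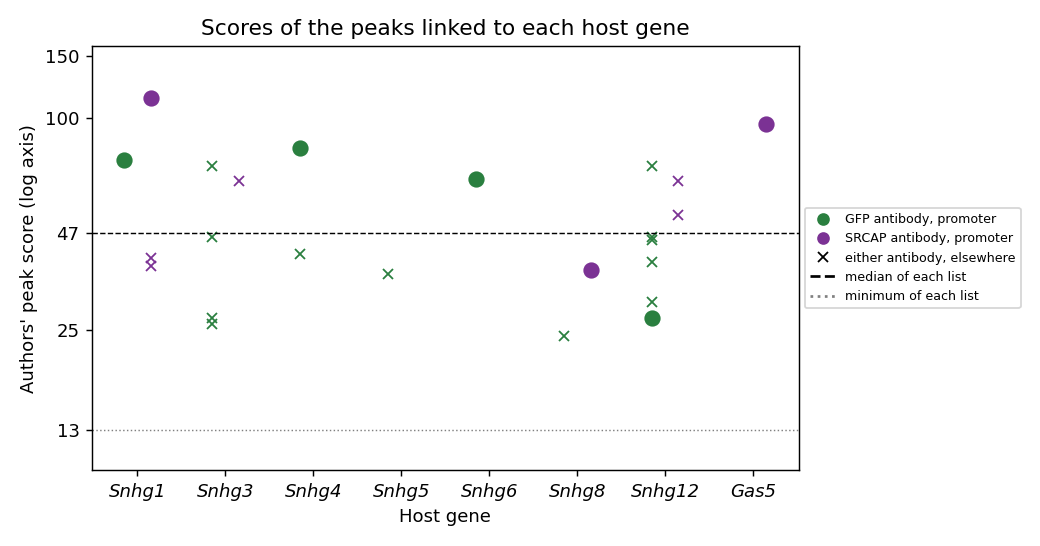
Authors' score of every linked peak by host gene (y axis, log scale; green, GFP antibody; purple, SRCAP antibody; filled circles, promoter peaks; crosses, peaks elsewhere). The dashed line is the median of each list, 47, and the dotted line its minimum, 13, and the promoter peaks of Snhg12, at 27, and Snhg8, at 37, lie below the median while those of Snhg1, Snhg4, Snhg6 and Gas5 lie above it.

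The antibodies thus shared 1 of the 5 host genes that had a promoter peak in either list (95% interval 3.62% to 62.4%). Among all genes with a promoter peak in either list 59.9% had one in both, among long noncoding RNA genes 54.6%, and among the 191 other snoRNA host genes 61.8% (54.7 to 68.4). The interval of the 5 genes includes all of these values. Of the 4 genes with a promoter peak in a single list, Snhg6 and Gas5 had scores above the list median and Snhg12 and Snhg8 had scores below it, so the absence of a second peak went with both high and low scores. Depth could not be compared, since the lists give no read counts, and the part of depth, of the antibody or of the caller's threshold in these differences was not tested.

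Against gene classes of the same annotation, the 42.9% of host genes with a promoter peak in either single list was close to that of the other 343 genes that hold a snoRNA on their strand, 45.5% by the GFP antibody and 44.6% by the SRCAP antibody. Those genes were mostly protein-coding, and the 278 coding hosts without an Snhg name had a promoter peak at 50.0% (44.2 to 55.8) and 49.3% (43.5 to 55.1). The 57 noncoding hosts outside the list, a class closer in kind to the listed genes, had one at 24.6% (15.2 to 37.1) and 22.8% (13.8 to 35.2). All these values lie within the interval of the 7 genes, as do those of all genes, 17.1% and 17.4%. The values of long noncoding RNA genes as a whole, 11.5% and 11.4%, lie below it.

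The number of start sites widens the window in which a peak can count, and 6 of the 7 genes had at least 5 start sites. Long noncoding RNA genes with 1 start site had a promoter peak at 9.23% by the GFP antibody and 8.98% by the SRCAP antibody, and the 244 with 5 or more had one at 28.3% (23.0 to 34.2) and 25.8% (20.7 to 31.7). These last shares, 28.3% and 25.8%, lie within the interval of the 3 of 7 in each list, 15.8% to 75.0%. When the start was taken as the gene's 5′ end only, the GFP antibody still had 3 of 7 and the SRCAP antibody had 2, Gas5 being the gene that dropped out.

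**Figure D5:**
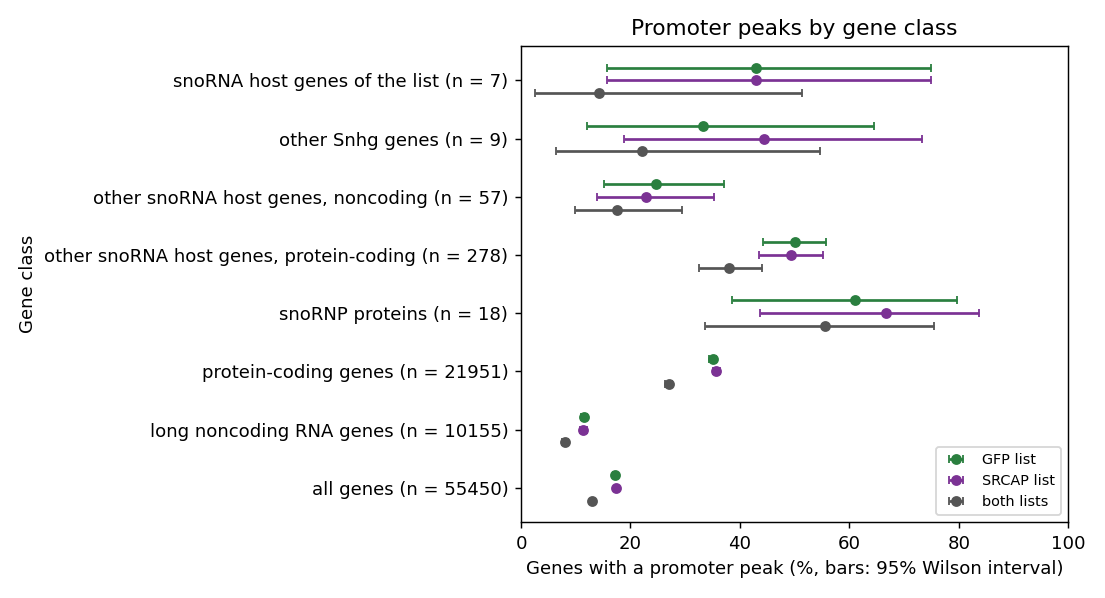
Share of genes with a promoter peak (x axis, percent) in the GFP list (green), the SRCAP list (purple) and both (grey) by gene class, with 95% Wilson intervals as bars and the number of genes in each class printed beside its name. The intervals of the 7 listed host genes, 15.8 to 75.0 for each single list, span the values of all classes of hosts. They also span those of all genes, 17.1% and 17.4%, and lie above those of long noncoding RNA genes as a whole. For both lists the interval, 2.57 to 51.3, holds the 8.08% of long noncoding RNA genes.

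The other 9 genes of the annotation with an Snhg name were found at the promoter in 3 cases by the GFP antibody, in 4 by the SRCAP antibody and in 2 by both. Snhg10 had scores of 114 and 200 and Snhg17 had scores of 64 and 50, in the order GFP and SRCAP antibody. Snhg18 was found with the GFP antibody alone, with a score of 34, and Snhg7os and Snhg11 with the SRCAP antibody alone, with scores of 43 and 68. Snhg9, Snhg14, Snhg15 and Snhg20 had no promoter peak in either.

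Another group of the pathway was a list of 18 genes, for the core proteins bound to snoRNAs and for the factors that help assemble them. A promoter peak of the GFP antibody was at 11 (61.1%, 38.6 to 79.7), of the SRCAP antibody at 12 (66.7%, 43.7 to 83.7) and of both at 10 (55.6%, 33.7 to 75.4). Of protein-coding genes 35%, 35.6% and 27.0% had one. The 18 genes had a median of 5 start sites and protein-coding genes one of 3, and the part of start sites in this difference was not tested. Of the 13 genes found in either list, 10 were found in both (76.9%, 49.7 to 91.8), and the interval includes the 61.9% of protein-coding genes. Of the 4 core box C/D proteins Fbl, the methyltransferase fibrillarin, scored 33 and 47 and Nop58 scored 110 and 68, while Nop56 and Snu13 had no promoter peak. Among the 4 core box H/ACA proteins Dkc1, the pseudouridine synthase dyskerin, scored 34 and 18 and Nhp2 scored 41 and 79, Nop10 had a GFP antibody peak alone with a score of 34, and Gar1 had none. Of the 10 assembly factors, 6 were found in both lists, Ruvbl1, Ruvbl2, Znhit6, Nufip1, Pih1d1 and Rpap3, and the highest GFP antibody scores were 79 for Pih1d1 and 68 for Nufip1, whose SRCAP antibody scores were 82 and 23. Naf1 and Nolc1 were found with the SRCAP antibody alone, and Znhit3 and Shq1 with neither. Snhg1, as the listed gene with both peaks, scored 76 and 114, within the range of these proteins' genes with the GFP antibody and above it with the SRCAP antibody.

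Among the remaining snoRNA hosts the highest scores were 362 for Eif2ak3, a kinase of the unfolded protein response, 320 for Gsk3b and 235 for Tcp1, a chaperonin subunit, with the GFP antibody, and 334 for Tcp1, 287 for Cnot1, the scaffold of the deadenylase complex, and 238 for Cep85 with the SRCAP antibody. The hosts closest to Snhg1 in their pair of promoter scores, by Euclidean distance of log2 scores over the 2 libraries among 116 hosts with both peaks, were Casp2 at 0.0643, Pcdhgb1 at 0.0933 and Akap7 at 0.145. Casp2, which encodes caspase 2, scored 74 by the GFP antibody and 110 by the SRCAP antibody. With only 2 libraries such closeness is a description of 2 numbers.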

How the data were processed

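The authors deposited 1 peak list per CUT&RUN library, called with MACS2 for each library by itself. Per the labels' processing notes the tools were STAR, Picard and MACS2 and the builds mm10 and dm6, and the paper lists versions, which are not repeated here. It describes an input control for its ChIP-seq and removal of mm10 blacklist regions for its ChIP-seq and CUT&Tag data, and whether these applied to the CUT&RUN lists is not given in the sources used here. The paper's methods name only the SRCAP antibody for CUT&RUN, so the assay of the GFP library rests on its label. Each deposited line holds a position, a name and a whole-number score, at least 13 in both lists, whose definition is not stated. Scores were used for ranks, medians and differences within a list, and the distance between score pairs combined the differences of both lists. Read counts were not analysed here, so depth is unknown. No peak ended beyond its GRCm38.p6 chromosome over 21 chromosomes.

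Peaks were assigned by midpoint to GENCODE vM21 genes with Python 3.11.15 and numpy 2.4.6, from 1000 bp before to 500 bp after a start site, in the gene body or within 20 kb. Overlap between lists meant at least 1 bp. Host genes outside the list were those holding an annotated snoRNA on their strand, and their coding and noncoding classes left out genes with an Snhg name. Sequences came from RefSeq promoter windows (GRCm38) and the GRCm38.p6 genome. The assignment was tested on simulated peaks. The members and lists were chosen with earlier results of these data known. Genes named were the members, genes sharing their promoter peaks, the other Snhg genes and snoRNP genes with peaks in both lists, the 3 highest-scoring remaining hosts per list and the 3 nearest to the members with both peaks, and those of the short lists named besides were chosen after their values were seen. Alternatives were other windows, flanks, overlaps and score minima.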

Additional observations from a re-analysis of the deposited data

How the results depend on the processing

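No paired analysis was possible because the labels give 1 sample for each antibody, and no replicate could be left out for the same reason. Of 63 values under alternatives, 29 stayed within 1.5 times a count or within the interval of a share and 34 moved. With windows of 2500 bp either side, the GFP list reached 6 of 7 promoters (Snhg3, Snhg5 and Snhg8 joining) and 2 in both lists, the second being Snhg8, and the count with the SRCAP antibody stayed at 3. Snhg8 lost its SRCAP antibody peak at 500 bp either side, and Gas5 lost its own when only the gene's 5′ end counted. At scores of at least the list median, Snhg12 and Snhg8 dropped out, and linked peaks fell to 3 (GFP antibody) and 4 (SRCAP antibody), with 2 of the GFP antibody peaks shared. A flank of 5 kb left 3 linked SRCAP antibody peaks and 1 shared peak in each list, and a flank of 50 kb gave 24 and 19 linked peaks, with 10 and 9 shared. Under reciprocal overlap of 50%, 1 peak in each list was shared. Snhg4, added after seeing the data, moved no count by over 1.5 times.

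Among all genes the share with a promoter peak, in the order GFP antibody, SRCAP antibody and both, was 15.6%, 16% and 11.7% at 500 bp either side, 23.1%, 23.1% and 17.4% at 2500 bp, 14.7%, 15% and 10.9% from the 5′ end only, 18.1%, 18.2% and 13.7% by overlap, and 10.7%, 11.2% and 7.54% at the median score or above. Among the other snoRNA hosts it was 54.2% (GFP antibody) at 2500 bp, 39.9% and 37.9% from the 5′ end only, and 30.6% and 28.9% at the median score or above. These windows and score limits count more or fewer peaks by construction. The cause of the differences between lists was not tested, and with 7 genes the interval of a share of 3 runs from 15.8% to 75.0%.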

Other observations

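Of the 29 snoRNA records inside the 7 host genes, 0 were touched by a peak of either list, which allows a share of up to 10.3% (3 of 29, the limit a count of 0 allows, for counting error only). Among the 666 other snoRNA records inside a host gene 8 (1.20%) were touched by a GFP antibody peak and 9 (1.35%) by a SRCAP antibody peak, and among the 863 outside any host 6 (0.695%) and 13 (1.51%), so 0 of 29 could not be distinguished from these shares at this number. The nearest approach of a linked peak to a snoRNA of its host was at Gas5, where the SRCAP antibody peak ended 236 bp before Gm26224, the first annotated snoRNA of the gene. At Snhg1 the distances were 633 bp for the GFP antibody and 537 bp for the SRCAP antibody.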
